A study of Mus musculus with 11 samples.

Results

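Of 36 genes for transport in the primary cilium and for its transition zone, 31 could be tested between embryonic day 13 (E13) and embryonic day 16 (E16) in basal progenitors of the mouse cortex. At E16, 3 of them were higher and 5 lower, with no change reaching 2-fold. The genes were chosen by name, as subunits or partners of intraflagellar transport, the BBSome, membrane protein targeting and the transition zone, and every array probe whose platform symbol matched was taken, which gave 83 of 45281 probes (the named probes cover 19057 genes). RNA came from basal progenitors sorted by flow cytometry from embryonic cortex, and each array carried a separate biological replicate. The E13 group had 6 arrays and the E16 group 5, with embryos from 3 litters per stage, and every raw column label ends in WT, read here as wild type. No treatment or transgene is named in the labels. The sources used here give neither the sort marker nor the litter of each embryo.

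The primary cilium is a single antenna on the surface of most cells, built on the mother centriole and dismantled before division. Intraflagellar transport (IFT) trains carry cargo along it. Their IFT-B complex is tied to outward movement with kinesin-2, and their IFT-A complex to the return with the motor dynein-2. The BBSome, named after Bardet-Biedl syndrome, is an adaptor that moves membrane proteins on these trains. The transition zone is the gate at the base of the cilium, and loss of its proteins causes Joubert and Meckel syndromes. In the developing cortex the cilium of apical progenitors projects into the ventricle and receives Hedgehog signals.

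Many promoters of cilium genes carry an X-box, the binding motif of RFX transcription factors, so the start regions of the members are shown before their levels. Windows of 300 bases around the annotated gene start (RefSeq, GRCm38.p6) were found for 31 of the 36 genes, in 34 windows. The motif searched reads GTTGCC, any 2 bases, GG, any base, then AAC, on either strand, and 4 windows (11.8%) held it, compared with 0.298% of all 32851 windows and 0.371% of the 11039 windows of genes tested on the arrays. The 4 matches are printed 5′ to 3′ along the gene, with the motif in capitals.
Ahi1: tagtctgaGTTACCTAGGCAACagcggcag
Bbs7: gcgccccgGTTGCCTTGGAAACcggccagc
Mks1: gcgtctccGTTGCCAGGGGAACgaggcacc
Tctn1: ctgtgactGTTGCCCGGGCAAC
The stretch of Ahi1 lies at chr10:20952560-20952589 on the plus strand, with the motif beginning at base 22 of the transcript. Ahi1 has 2 windows, and only 1 of them held the motif. That of Bbs7 lies at chr3:36613489-36613518 on the minus strand, and its motif begins 121 bases before the start. The Mks1 stretch, at chr11:87853183-87853212 on the plus strand, has its motif 24 bases before the start. In Tctn1, at chr5:122264411-122264432 on the minus strand, the motif begins at base 37 and ends with the window.

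The shorter core GTTGCC, or its reverse complement GGCAAC, which is contained in the full motif, was in 15 of the 34 windows (44.1%), compared with 12.5% of all windows. Among the members that changed between the stages, 3 without a full match held it, and these are printed to show where it lies in genes whose levels are described below.
Dync2h1: gcgacggagcttGGCAACtgctgagt
Ift172: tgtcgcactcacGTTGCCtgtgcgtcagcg
Tctn2: cattgattggtgGTTGCCatggctgcaggc
They lie at chr9:7177009-7177034 (minus strand), chr5:31291097-31291126 (minus strand) and chr5:124598750-124598779 (plus strand). The core was in 4 of the 7 changed members with a window and in 9 of the 20 tested members that did not pass the test. A match in a window is a description of its letters, and binding was not measured here.

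Each array detected between 19731 and 20604 probes, and the lowest correlation between arrays of one stage was 0.979 across genes. Of the 83 member probes, 52 were kept, meaning detected (detection p under 0.05) on at least 5 arrays, and 24 were detected on no array. Levels are given as log2 intensity after background correction and quantile normalization, and the brightest kept probe stands for the gene. Arl6, the GTPase that recruits the BBSome, and Arl13b, a cilium membrane GTPase, lacked a named probe and so were not analysed here. Tmem67, a transition zone receptor, was detected on 0 of 11 arrays by each of its 6 probes. The transition zone gene Tctn1 was detected on at most 4 arrays by any of its 3 probes, and the centriolar gene Ofd1 on 1 array, so these 3 genes were not tested.

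The share of members that changed was close to that of the array as a whole. With limma, 8 of the 31 tested members had an adjusted p under 0.05, which is 25.8%, compared with 27.1% of the 10568 genes tested. The 3 that rose compare with 13% of all genes higher at E16, and the 5 that fell with 14.1% lower. Levels at E13 and E16 were fully separated for 6 members (17.0% of all genes). The median size of a difference, in either direction, was 0.21 on the log2 scale for the members and 0.19 for all genes. None of the 31 members differed by at least 1 on this scale, which 536 genes (5.07%) did. In bulk samples, fewer cells of a type and less RNA per cell cannot be told apart, and this holds for each difference given here.

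**Figure D1:**
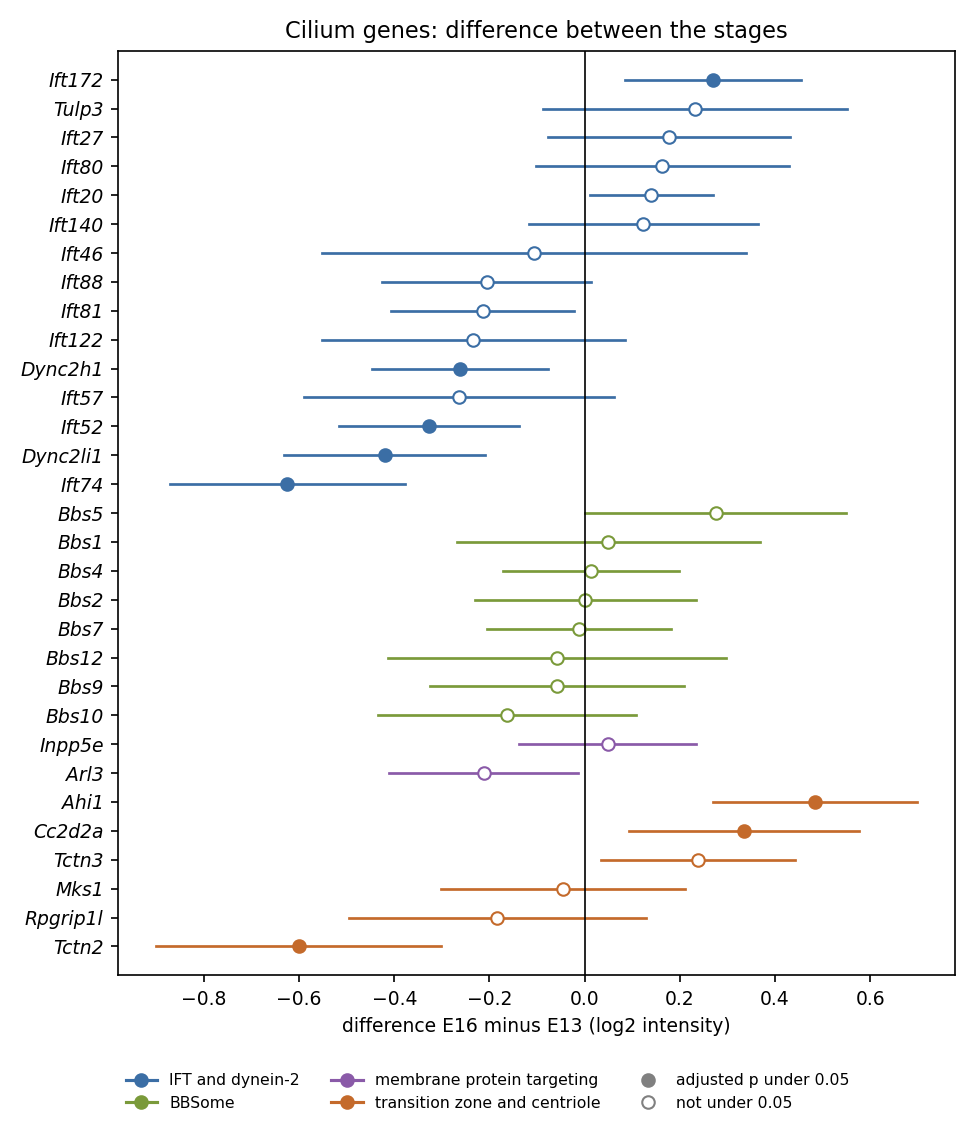
Difference between E16 and E13 (log2 intensity, x axis) for each of the 31 tested cilium genes, with 95% confidence intervals. Filled points are the 8 genes with an adjusted p under 0.05: Ift172, Ahi1 and Cc2d2a to the right of 0, and Dync2h1, Ift52, Dync2li1, Ift74 and Tctn2 to the left.

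**Figure D2:**
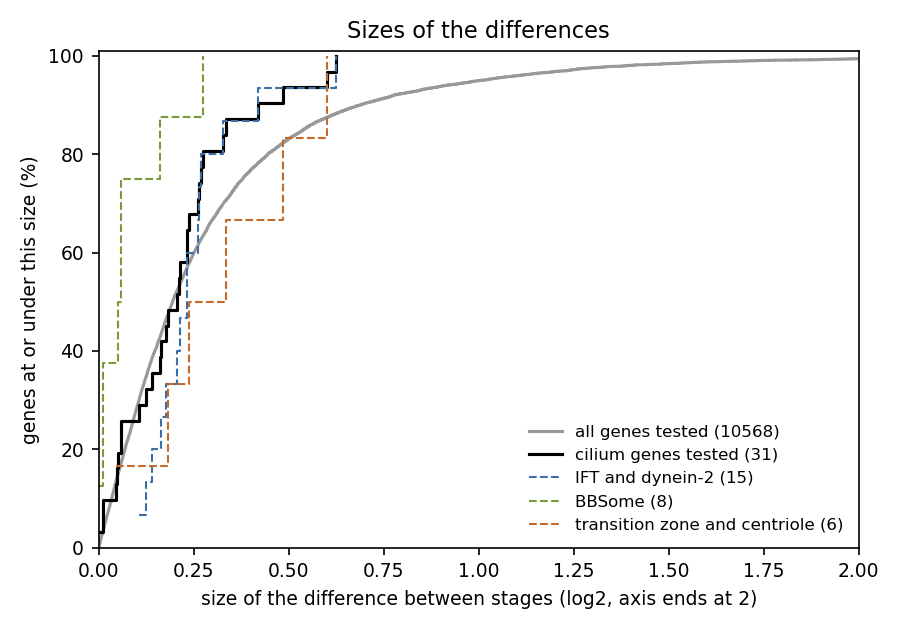
Cumulative share of genes (y axis, %) at or under a given size of difference between the stages (x axis, log2). The curve of the 31 cilium genes ends at 0.62, whereas 5.07% of all genes lie at 1 or beyond, and the 8 BBSome genes lie furthest left.

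Of 10 tested IFT-B genes, 2 fell, 1 rose and 7 did not pass. The share called was 30%, near the 27.1% of all genes. Ift74, which pairs with Ift81 to bind tubulin, had log2 levels from 7.13 to 7.56 at E13 (median 7.24). At E16 it read 6.73, 6.49, 6.80, 6.54 and 6.70, so every E16 array lay below every E13 array. Ift74 fell by 0.62 on the log2 scale, or 1.54-fold (SE 0.115, adjusted p = 9.13e-04 in limma), the largest difference among the members, although 11.8% of all genes differed by more. Its other kept probes gave -0.62 and -0.52 and passed as well (adjusted over all kept probes).

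Ift81, the partner of Ift74, ranged from 10.10 to 10.41 at E13 and from 9.81 to 10.24 at E16, and these ranges overlapped. Its difference was -0.21 (SE 0.09, adjusted p = 0.0933). The difference between the partners was itself not tested.

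Ift52, a core subunit of IFT-B, ranged from 9.78 to 10.10 at E13 (median 9.94). It read 9.52, 9.43, 9.69, 9.71 and 9.78 at E16, with its highest E16 array only just under the lowest E13 array. It fell by 0.33 (SE 0.089, adjusted p = 0.0129), and its other kept probe gave -0.41 (adjusted p = 0.00508 in limma over all kept probes).

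Ift172, a large peripheral subunit that acts at the tip of the cilium, moved the other way. It ranged from 9.91 to 10.22 at E13 (median 9.98) and read 10.44, 10.39, 10.29, 10.10 and 10.28 at E16. The stages overlapped through E16 replicate 4, the lowest of its stage. Ift172 rose by 0.27 (SE 0.087, adjusted p = 0.0306), while its other kept probes gave 0.01 and 0.16 and did not pass. The call was lost when E13 replicate 1, 3 or 5 or E16 replicate 1, 2 or 3 was left out (adjusted p up to 0.0764). It was also lost with median centring (0.24, adjusted p = 0.114 in limma) and with the mean of its probes (0.15, adjusted p = 0.242).

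The other IFT-B members did not pass. Ift20, which also sits at the Golgi apparatus, differed by 0.14, the GTPase Ift27 by 0.18, Ift80 by 0.16, the core subunit Ift88 by -0.21, Ift57 by -0.26 and Ift46 by -0.11. Ift57 was detected on all 6 E13 arrays and 2 of 5 E16 arrays, and Ift46 on 5 of 6 and 3 of 5, so their values lie near background.

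Among the members, none of the 3 tested genes for IFT-A and its partner Tulp3 passed (limma), and 0 had an unadjusted p under 0.05. Of all genes, 27.1% passed. Ift43, a further IFT-A gene counted in a list below, differed by -0.24 and passed (adjusted p = 0.0235 in limma). Ift122 ranged from 7.49 to 8.34 at E13 and read 7.94, 7.66, 7.89, 7.96 and 7.46 at E16, a difference of -0.23 (95% interval -0.55 to 0.08, adjusted p = 0.273). The stages overlapped widely. Ift140 differed by 0.12. Tulp3, which links IFT-A to membrane receptors on their way into the cilium, differed by 0.23 (95% interval -0.09 to 0.55).

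Both dynein-2 genes among the members, which encode parts of the motor of the return, were lower at E16, as were 14.1% of all genes. Further dynein-2 genes are given below. Dync2li1, the light intermediate chain, ranged from 8.31 to 8.67 at E13 (median 8.48) and read 7.90, 8.01, 8.02, 8.21 and 8.16 at E16. Its stages did not overlap, and it fell by 0.42, or 1.34-fold (SE 0.099, adjusted p = 0.0052). Dync2h1, the heavy chain that generates the force, ranged from 8.75 to 9.07 at E13 (median 8.89) and read 8.59, 8.73, 8.61, 8.62 and 8.64 at E16. The gap between its stages was narrow, and it fell by 0.26 (SE 0.087, adjusted p = 0.0357). Its other kept probe gave -0.23 (adjusted p = 0.0818 in limma over all kept probes). The call of Dync2h1 held in 3 of the 11 fits that left out an array and was lost without E13 replicate 2, 3, 5 or 6 or E16 replicate 1, 3, 4 or 5 (adjusted p up to 0.0738). Median centring (adjusted p = 0.0569) and omission of the detection filter (adjusted p = 0.0577) also ended it in limma.

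**Figure D3:**
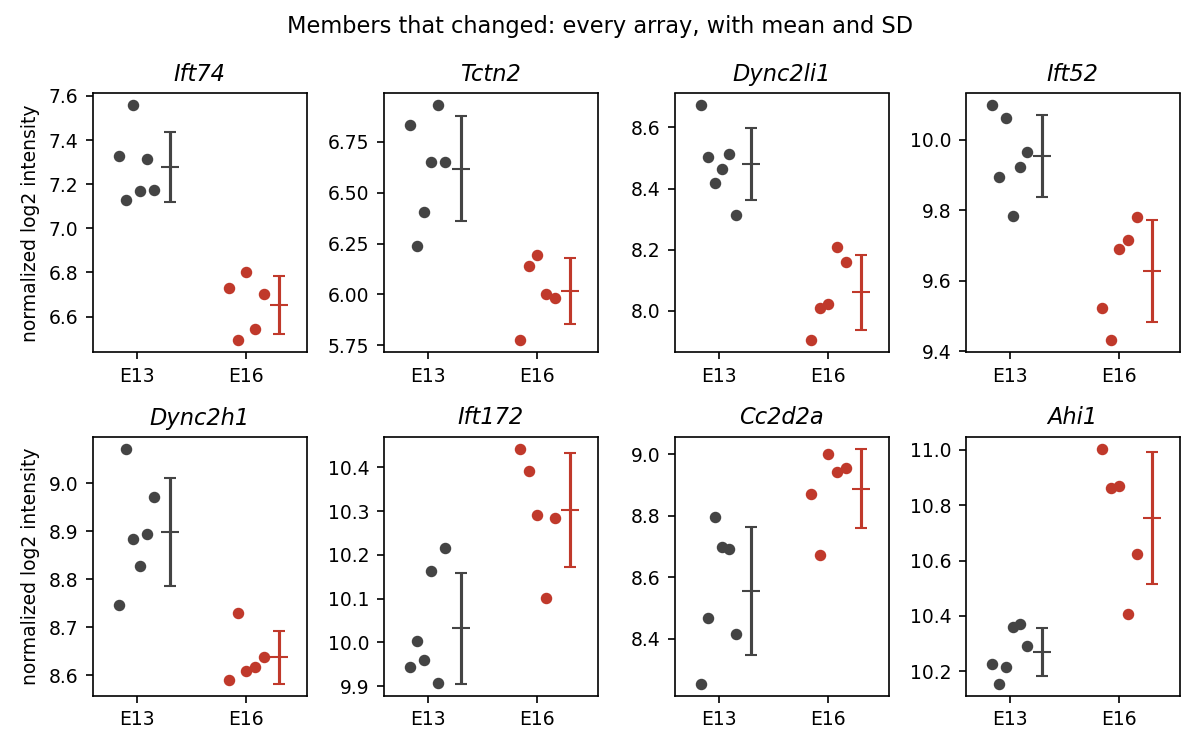
Normalized log2 intensity (y axis, own scale in each panel) of the 8 cilium genes that changed, with 1 point per array for 6 E13 arrays (grey) and 5 E16 arrays (red). Bars give mean and SD. The stages do not overlap for Ift74, Tctn2, Dync2li1, Ift52, Dync2h1 and Ahi1, and they overlap for Ift172 and Cc2d2a.

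BBSome genes among the members mostly had small differences between the stages. Of 8 tested genes, which include 2 for chaperonin-like proteins, 0 passed the test in limma, compared with 27.1% of all genes. Only 1, Bbs5, had an unadjusted p under 0.05. Their median difference was -0.01 and their median size 0.05, where transport and dynein-2 genes had a median size of 0.23 and transition zone genes 0.29, an ordering that was not tested. Their 95% intervals lay between -0.43 and 0.55, the upper bound being that of Bbs5, and differed in width between genes. A change inside a gene's own interval lies within the error of these arrays. Bbs4, which links the complex to centriolar satellites, ranged from 10.20 to 10.60 at E13 and from 10.25 to 10.48 at E16, a difference of 0.01 (95% interval -0.17 to 0.20). Bbs7 differed by -0.01 (95% interval -0.21 to 0.18), and Bbs2 by 0.002 (95% interval -0.23 to 0.23). Bbs1, the subunit that meets Arl6, differed by 0.05 and Bbs9 by -0.06.

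Bbs5, a subunit that binds phosphoinositides, had the largest difference among these 8 members. The further subunit gene Bbip1, outside the members, differed by 0.40 and did not pass (adjusted p = 0.0868 in limma). Bbs5 is described here. It ranged from 7.96 to 8.44 at E13 (median 8.30) and read 8.16, 8.52, 8.78, 8.51 and 8.75 at E16, where replicate 1 lay within the E13 range and the others above it. The difference was 0.28 (SE 0.128, adjusted p = 0.128), and it passed when E16 replicate 1 was left out (0.37, adjusted p = 0.0343 in limma). Of the chaperonin-like genes that assemble the BBSome, Bbs10 ranged from 7.33 to 7.74 at E13. At E16 Bbs10 read 7.18, 7.09, 7.49, 7.65 and 7.32, with overlapping stages and a difference of -0.16 (adjusted p = 0.378). Bbs12, detected on 3 of 5 E16 arrays, differed by -0.06.

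For the targeting of membrane proteins to the cilium, 2 genes were tested and 0 passed in limma, compared with 27.1% of all genes. An unadjusted p under 0.05 was found for 1 of them. Arl3, a GTPase that releases lipid-anchored cargo inside the cilium, ranged from 10.99 to 11.22 at E13 (median 11.07). It read 10.72, 10.73, 10.73, 11.16 and 11.05 at E16, so E16 replicates 1 to 3 lay below the E13 range and replicates 4 and 5 within it. The difference was -0.21 (SE 0.093, adjusted p = 0.106), and it passed without E16 replicate 4 (-0.28, adjusted p = 0.0243 in limma). The size depended on the probe: the other kept probe of Arl3 gave -0.63 (SE 0.319, adjusted p = 0.17 in limma over all kept probes), with E13 replicate 6 at 10.11 and the other E13 arrays from 7.71 to 8.32. The mean of both probes gave -0.42 (adjusted p = 0.0981). Inpp5e, a phosphoinositide phosphatase of the cilium membrane, differed by 0.05 (95% interval -0.14 to 0.23).

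Of 6 tested transition zone genes, 2 rose, 1 fell and 3 did not pass. The share called was 50%, compared with 27.1% of all genes called in either direction. With 6 genes this share is imprecise, and its distance from that of all genes was not tested. Ahi1, also called jouberin, has an X-box in 1 of its 2 start windows (above). It ranged from 10.15 to 10.37 at E13 (median 10.26). It read 11.004, 10.86, 10.87, 10.41 and 10.62 at E16, all above E13, with replicate 4 nearest to the E13 range. Ahi1 rose by 0.48, or 1.40-fold (SE 0.1, adjusted p = 0.00215), by the only probe kept of its 2. Its SD was 0.238 (n = 5) at E16 and 0.086 (n = 6) at E13.

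Cc2d2a, a coiled-coil protein of the gate, ranged from 8.25 to 8.80 at E13 (median 8.58) and read 8.87, 8.67, 9.001, 8.94 and 8.96 at E16. Only E16 replicate 2 lay within the E13 range. It rose by 0.33 (SE 0.113, adjusted p = 0.0395), and the call was lost without E13 replicate 1, 2 or 6 or E16 replicate 1, 3, 4 or 5 (adjusted p up to 0.0935 in limma). It was lost as well with median centring (0.30), without the detection filter (0.33) and with array weights (0.27), at adjusted p from 0.0604 to 0.0983.

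Tctn2, one of the tectonic proteins of the gate, ranged from 6.24 to 6.93 at E13 (median 6.65) and read 5.77, 6.14, 6.19, 5.9997 and 5.98 at E16. The stages did not overlap, and it fell by 0.60, or 1.52-fold (SE 0.14, adjusted p = 0.00492). Its other kept probe gave -0.18 and did not pass (adjusted p = 0.35 in limma over all kept probes), so the size depends on the probe. Tctn3, a related tectonic, had a difference of 0.24 (95% interval 0.03 to 0.44, adjusted p = 0.0793), opposite in sign to that of Tctn2. Mks1 differed by -0.05 and the scaffold gene Rpgrip1l by -0.18.

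**Figure D4:**
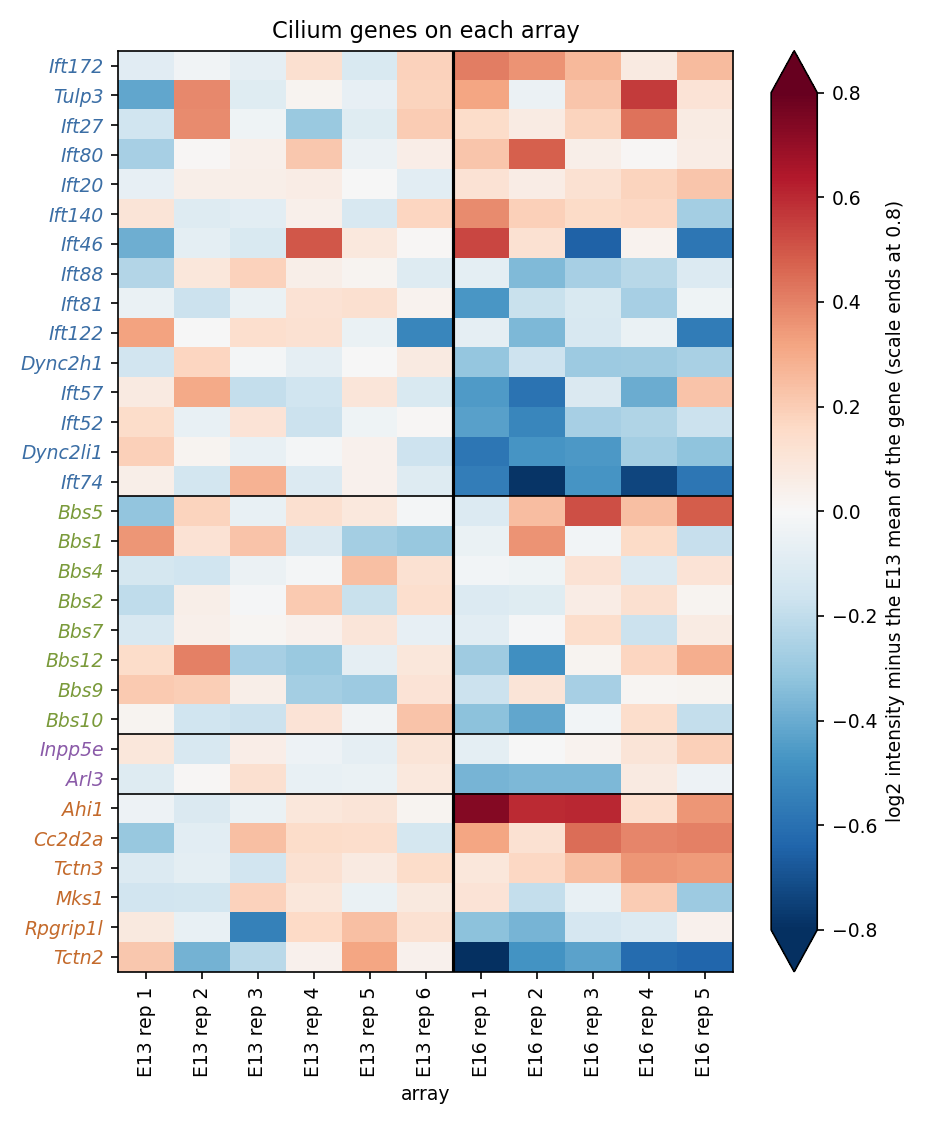
Log2 intensity of the 31 tested cilium genes (rows) on the 11 arrays (columns), relative to the E13 mean of each gene. The colour scale ends at 0.8. The E16 columns of Ift74, Tctn2 and Dync2li1 are uniformly blue and those of Ahi1 red, while BBSome rows (green names) are mixed.

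Where several probes read one gene they mostly pointed the same way. Such members numbered 15, and 20 of their 21 further kept probes had the same sign as the brightest. The exception was 1 of the 4 probes of Ift140, and 0 members had probes past the threshold in opposite directions. Fitted one by one, 11 of the 52 kept member probes passed, where 24.2% of all kept probes with a gene did.

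**Figure D5:**
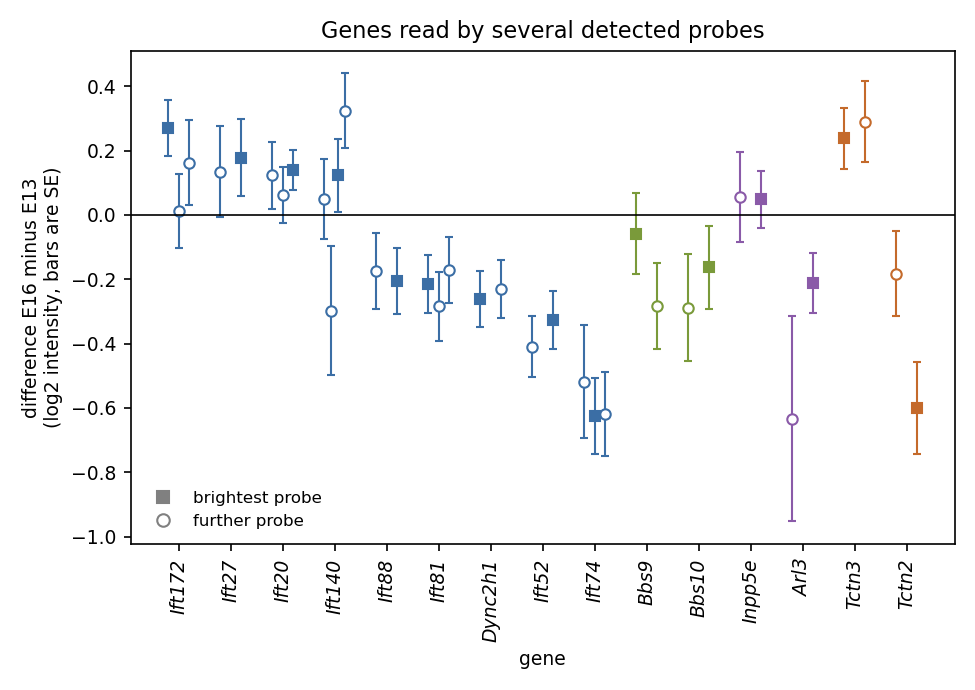
Difference between the stages (log2 intensity, y axis, bars are SE) for each kept probe of the 15 cilium genes read by several probes. Squares are the brightest probes and open circles the others. All 3 probes of Ift74 lie between -0.62 and -0.52, whereas those of Tctn2 lie at -0.60 and -0.18.

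The genes most like 3 of the members were sought by correlation over the 11 arrays after removal of each stage's mean. Over all genes, those most like Ift74 by this measure were Cpm (0.875), Surf6 (0.868) and Birc5 (0.865), those most like Ahi1 were Slitrk5 (0.963), Sema6a (0.960) and Dock4 (0.946), and those most like Tctn2 were Rbms1 (0.962), Septin11 (0.925) and Ankle2 (0.914). These values come from the arrays that also gave the differences, are the highest among 10568 genes, and are given as a description.

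Further genes of the same apparatus were counted by list. Over 5 lists of 92 further primary cilium genes, 74 were tested, 4 rose and 15 fell. The share called was 25.7%, near the 27.1% of all genes, with a median difference of -0.09 beside -0.01 for all genes. Among 18 further IFT, kinesin-2 and dynein-2 genes, 1 rose and 4 fell (27.8% called). Ift22 fell by 0.53 (adjusted p = 0.0087 in limma), and the IFT-A gene Ift43 (-0.24) passed as well. Of the genes for the IFT-B subunit IFT70, Ttc30b rose by 0.43, and Ttc30a1, detected on 0 of 5 E16 arrays, was at least 1.18-fold lower. Near-identical sequences of these genes could share probe signal. Of the further dynein-2 genes, the light chain gene Dynll1 (-0.26, adjusted p = 0.022 in limma) passed. Wdr34 (0.05), Wdr60 (0.16), Tctex1d2 (0.03) and Dynlrb1 (-0.04) did not pass. Dynlrb2, a relative of Dynlrb1, is counted with the motile cilium markers below and was lower at E16. The kinesin-2 motor genes Kif3a (0.29) and Kif3b (-0.08) did not pass.

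Of 17 further transition zone and nephronophthisis genes, 1 rose and 3 fell (23.5% called, compared with 27.1% of all genes). Anks6 rose by 0.69 (adjusted p = 4.19e-04 in limma). Zfp423 fell by 0.61, B9d1, which works beside Mks1 in the gate, fell by 0.60, and Cep41 fell by 0.45. Of 5 further BBS-linked genes 0 passed in limma, and 2, Bbip1 (0.40) and Mkks (-0.25), had an unadjusted p under 0.05. Of 11 tested genes for cilium receptors and disassembly, 27.3% were called. The adenylyl cyclase Adcy3 (0.51) and the polycystin Pkd1 (0.52) rose. The mitotic kinase Aurka, which promotes cilium disassembly, fell by 1.24 (adjusted p = 3.68e-07 in limma). Aurka is also counted among the mitosis markers below, of which 12 of 13 measured fell. Plk1, likewise in both lists, differed by -1.98 and did not pass (adjusted p = 0.0661 in limma).

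Of 23 tested genes that start or restrain cilium assembly, 7 fell and 0 rose, with a median of -0.23. The share called was 30.4%, all of them lower, compared with 27.1% of all genes called in either direction and 14.1% lower. The largest was Rfx2, a factor that binds the X-box, which fell by 1.10 (SE 0.13, adjusted p = 1.83e-05 in limma). Rfx3 (-0.38, adjusted p = 0.0816), Rfx1 (0.08), Rfx4 (-0.09) and Rfx7 (-0.10) did not pass. The recycling GTPase Rab11a (-0.51), the distal appendage gene Cep83 (-0.47) and the kinesin Kif24 (-0.46, detected on 2 of 5 E16 arrays) fell.

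Of 26 listed markers of motile cilia and multiciliated cells, 12 were tested on the same arrays. At E16, 5 fell, 0 rose and 7 did not pass. The share called was 41.7%, compared with 27.1% of all genes called in either direction and 14.1% lower. Ccno fell by 3.73, and Ccdc40 fell by 0.47. Mcidas, Dynlrb2 and Rsph1 were at least 3.08-fold, 2.68-fold and 1.67-fold lower, each with no detection on the 5 E16 arrays. The summed linear level of the 12 genes ran from 973 to 1937 at E13 and from 504 to 583 at E16. Foxj1, the master regulator of motile cilia, differed by -0.24 (adjusted p = 0.285), and the axoneme genes Dnah5, Dnah9, Dnaic1 and Dnaic2, with Deup1 and Cdc20b, were detected on no array.

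The sorted cells carried markers of their label. Of 13 basal progenitor markers, 12 were measured and Btg2 was on no array, and Eomes was detected on all 11 arrays. In limma 10 of them fell and 1 rose, and their summed level was 38360 to 46994 at E13 and 28807 to 36828 at E16. All 13 radial glia markers (3231 to 4779 and 4285 to 4935) and 12 of 14 neuron markers (57836 to 68664 and 55525 to 61323, with Snap25 and Nefl on no array) were measured too. These sums overlapped between the stages, while 5 radial glia markers rose and 3 fell, and 1 neuron marker rose and 5 fell. Of 13 measured mitosis markers (19 listed) 12 fell (9742 to 13205, then 3275 to 5096). Of 7 measured Cajal-Retzius markers (10 listed) 6 fell (11949 to 18279, then 2716 to 5210). The single measured erythroid marker, Hba-a1, rose by 2.48. Endothelial and mural markers were measured for 1 of 12 genes and microglial markers for 2 of 7. Interneuron markers, 7 of 12 measured, ran from 364 to 1249 and from 222 to 465, and those of choroid plexus and hem, 4 of 8, from 98.7 to 234 and from 47.1 to 63.3. The part of these cell types in the members' differences was not tested.

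Within E13, replicate 1 had the highest sum of multiciliated, radial glia, Cajal-Retzius, interneuron, hem and microglial markers. Without it, Ift74 (-0.62), Tctn2 (-0.56), Dync2li1 (-0.38), Ift52 (-0.30), Dync2h1 (-0.29) and Ahi1 (0.47) still passed, and Ift172 (0.25, adjusted p = 0.0614) and Cc2d2a (0.28, adjusted p = 0.081 in limma) did not.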

How the data were processed

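Total RNA of sorted basal progenitors was labelled as biotin cRNA and hybridised to Illumina bead arrays, per the labels' protocols. The deposited table holds probe intensity values on a linear scale, with no normalization between arrays. Between 26.9% and 29.2% of an array's values are below 0, so a background had been subtracted. A detection p-value follows each intensity, per the file headers. The series value table deposited by the authors holds log2 values for 16554 probes. How it was scaled and filtered is not stated in the labels, and it served as an alternative.

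Probes were named through the platform annotation: 34885 had 1 gene symbol, 18 had several and 10378 were unnamed here. Intensities were background-corrected by normexp from the detection p-values, given an offset of 16, quantile normalized and log2 transformed (neqc, limma 3.58.1, R 4.3.3). Probes detected on at least 5 arrays were kept, and the brightest per gene was fitted with lmFit and eBayes with a variance trend. Differences are E16 minus E13, with two-sided p-values adjusted by Benjamini-Hochberg over all 10568 genes and a threshold of 0.05. The fit was tested on simulated data. Where a stage had no detection of a gene, the bound "at least N-fold" sets the bright stage against the lowest signal detected per array, or the gene's own signal if higher. Summed levels are linear, less the offset. The number of arrays limits the precision, with a median SE of 0.113 over the members. Embryos of one litter were treated as independent in all p-values.

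The members and lists were chosen with earlier results of these data known. All members may be named. Values on every array were due for members past the threshold with a size of at least 0.5, and for the largest difference of any subgroup without one. Other lists name at most 4 genes past the threshold. Values on every array of Ift52, Ift172, Dync2h1, Ahi1 and Cc2d2a, and list genes named without passing or beyond that number, were added with their values in view. Alternatives were the authors' table, no background correction, median centring, no detection filter or a stricter one, the mean of probes or every probe, no variance trend, array weights, a replicate block, and leaving out each array.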

Additional observations from a re-analysis of the deposited data

How the results depend on the processing

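Among the 31 members, 4 that fell (Ift74, Tctn2, Dync2li1 and Ift52) and 1 that rose (Ahi1) kept direction and call in all 21 alternatives run for each, whereas Ift172 passed in 12, Dync2h1 in 10 and Cc2d2a in 10. One of the 21 fits every probe and counts a gene by its probe with the smallest p, so it favours passing, and the other kept probe of Tctn2 did not pass (-0.18, adjusted p = 0.35 in limma). Members higher numbered 1 with median centring and 1 with the replicate block, in place of 3. Leaving out each array in turn gave 1 to 3 members higher (1 without E13 replicate 1 or E16 replicate 3) and 4 to 5 lower, and 1155 to 1343 genes higher and 1278 to 1511 lower over the whole array. Median centring gave 966 genes higher and 1616 lower in place of 1373 and 1495, so the higher share was 37.4% in place of 47.9%. Calls that appeared in an alternative were those of Tctn3 with the mean of probes, Ift81 and Arl3 with array weights, Bbs5 without E16 replicate 1 and Arl3 without E16 replicate 4. The cause was not tested. Replicate numbers are shared by the stages but do not pair embryos: same-numbered arrays correlated between -0.10 and 0.14 in their deviations from the stage means, and 1 of 5 E16 arrays correlated best with its own number. With the replicate block 1161 genes were higher and 1293 lower, and 4 members were lower in place of 5. Past the threshold under the block were Ahi1, Dync2li1, Ift52, Ift74 and Tctn2, and no longer Ift172 (0.31, adjusted p = 0.0530), Cc2d2a (0.31, adjusted p = 0.0740) and Dync2h1 (-0.25, adjusted p = 0.104). By Dixon's criterion no array lay far from its stage in the 62 groups examined, which hold only the brightest probe of each tested member. The widest gap reached 0.99 of the critical value. Further probes, such as that of Arl3 with E13 replicate 6 apart, were not examined this way. Genes near background, such as Ift46, Ift57 and Bbs12, have differences limited by signal.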
